A study of Mus musculus with 2 samples.

Results

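Interferon-response genes are genes whose transcription is switched on when cells sense interferons. Type I interferons act through the receptor chains Ifnar1 and Ifnar2 and a factor that contains Stat2 and Irf9 and binds DNA elements built around repeated GAAA. Type II interferon acts through Ifngr1 and Ifngr2. The products block steps of viral growth, sense foreign nucleic acids, break down proteins for presentation on MHC class I and feed back on the pathway, and many lymphocytes keep a low level of them without infection. In group 2 innate lymphoid cells (ILC2s), tissue-resident lymphocytes of the lung that make type 2 cytokines, interferons are known to restrain growth and cytokine output.

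A list of 49 interferon-induced mouse genes was followed in scRNA-Seq of lung ILC2s, and 48 of them were measured among 32285 genes. The remaining gene, Mx1, was not analysed here. The genes were ordered by role into 6 regulators, 20 antiviral effectors, 7 genes of the Ifi200 family, 4 Schlafen genes, 4 Trim genes, 5 interferon-inducible GTPases and 3 antigen-processing genes. The regulators, effectors, GTPases and antigen-processing genes, 33 measured genes together, are called the general response below.

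The study holds 1 WT and 1 Pac1-KO library, each from live Lineage- CD90.2+ ST2+ Sca-1+ lung cells pooled over mice of a genotype. Pac1-KO mice lack PAC1 (gene Dusp2), a nuclear phosphatase of MAP kinases, in all their cells, and the study's methods give a C57BL/6J background and matched mice of both sexes, aged 6 to 8 weeks. The labels give no treatment, and no age or sex for the mice pooled in each library. With 1 library per genotype there is no replicate, so no difference was tested and each interval covers counting error only.

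Barcodes had to show at least 500 genes and no more than 10% mitochondrial UMIs, which left 8394 in WT, with 54579034 UMIs, and 7087 in Pac1-KO, with 58338886. A UMI marks 1 captured transcript, and levels are given as CPM, counts scaled to the same library total. The median barcode held 4186.5 UMIs in WT and 5577 in Pac1-KO, and 2.50% and 3.27% of its UMIs were mitochondrial. Both ILC2-defining genes Gata3 and Il1rl1 were found in 83.1% of WT and 86.0% of Pac1-KO barcodes, and 15 passing barcode sequences occurred in both libraries. Dusp2 had 1419 UMIs in WT and 5 in Pac1-KO, as the labels give it. Hemoglobin and other erythroid markers summed to 76.2 CPM in WT and 269 CPM in Pac1-KO, all 5 being higher. Of the other lists, B cell markers summed to 61.5 and 81.8 CPM with 5 of 7 higher. In all marker lists, higher and lower mean by 1.5-fold relative to the median of all genes, with no minimum of UMIs. Of the 12427 genes with at least 50 UMIs, 8.22% were higher and 12.8% lower. Macrophage or monocyte markers summed to 2.57 and 7.46 CPM with 5 of 9 higher and 1 lower. Only Lyz2 (67 and 327 UMIs) among the higher ones was well counted. The others were Fcgr3 (4 and 8 UMIs), Itgam (0 and 4), C1qa (0 and 3) and Csf1r (0 and 1). Adgre1, the lower one, had 3 and 1 UMIs. NK or ILC1 markers summed to 2.02 and 3.31 CPM with 1 of 8 higher and 1 lower, Klra8, at 6 and 4 UMIs. Mast cell or basophil markers summed to 13.2 and 28.6 CPM with 4 of 5 higher, stromal markers to 7.64 and 16.0 CPM with 2 of 5 higher and 2 lower, and epithelial markers to 55.9 and 82.5 CPM with 2 of 6 higher and 2 lower, Sftpc among them at 15 and 675 UMIs. Dendritic markers summed to 62.7 and 72.3 CPM, mostly from Ccr9, with 1 of 7 higher and 2 lower, Xcr1 (207 and 56 UMIs) and Zbtb46 (538 and 248 UMIs). Endothelial markers summed to 42.9 and 39.8 CPM with 0 of 5 higher or lower, and neutrophil markers to 0.183 and 0.103 CPM with 1 of 5 higher and 2 lower. The neutrophil genes so counted were S100a9 (0 and 1 UMIs), Csf3r (4 and 2) and Cxcr2 (6 and 3). The 14 ILC2 markers themselves summed to 9199 and 7826 CPM, with 1 higher and 5 lower. Il17a-type lymphocyte markers summed to 405 and 181 CPM, with 7 of 12 higher and 3 lower, and most of this sum was Trdv4, at 20379 and 6057 UMIs. Among the 7 higher, Il22 (2 and 6 UMIs), Sox13 (4 and 8), Ccr6 (4 and 11) and Blk (7 and 16) had few UMIs. At least 3 Il17a-type markers were found in 73 WT and 165 Pac1-KO barcodes. T cell markers, some of which ILC2s carry, summed to 695 and 954 CPM, with 0 of 10 higher and 3 lower. At least 3 T cell markers were found in 1899 WT and 1587 Pac1-KO barcodes. They made up most of the 1947 and 1700 barcodes bearing markers of any other cell type. The median depth of the latter was 10457 and 11758 UMIs, so leaving them out also removes many deep barcodes. In both libraries the T cell gene Cd8a, the macrophage gene C1qb, the dendritic genes Clec9a, Cd209a and Siglech and the neutrophil genes S100a8 and Retnlg were at 0. The part of these cells, of depth and of RNA quality in the values below was not tested beyond the comparisons given.

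The proximal promoters of 4 Ifi200 genes are shown first, since 4 of the 8 members that were higher by 1.5-fold, with Ifi208 at the largest ratio, lay in this family. The stretches are the 100 bases before the RefSeq start (GRCm38.p6), written 5′ to 3′ on the strand of the gene, and capitals mark each match to GAAANNGAAA or its other strand TTTCNNTTTC, the core of an interferon-stimulated response element. Isg15, an interferon-induced gene at a similar level in both libraries, is printed beside them.
Ifi208, chr1:173673565-173673664, plus strand: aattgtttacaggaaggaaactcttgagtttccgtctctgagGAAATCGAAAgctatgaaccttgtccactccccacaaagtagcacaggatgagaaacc
Ifi213, chr1:173599273-173599372, minus strand: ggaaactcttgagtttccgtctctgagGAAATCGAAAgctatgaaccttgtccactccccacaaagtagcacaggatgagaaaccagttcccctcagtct
Ifi206, chr1:173491319-173491418, minus strand: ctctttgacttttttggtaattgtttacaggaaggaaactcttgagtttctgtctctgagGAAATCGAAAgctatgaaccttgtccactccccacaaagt
Ifi209, chr1:173630759-173630858, plus strand: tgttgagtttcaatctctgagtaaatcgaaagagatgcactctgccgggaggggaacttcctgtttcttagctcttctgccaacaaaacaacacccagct
Isg15, chr4:156200819-156200918, minus strand: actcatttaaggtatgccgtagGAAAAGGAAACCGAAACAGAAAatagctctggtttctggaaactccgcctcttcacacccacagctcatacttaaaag

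Ifi208, Ifi213 and Ifi206 have nearly the same promoter. Lined up on the capitals, the window of 300 bases of Ifi213 matched that of Ifi208 at 282 of 285 bases, and that of Ifi206 at 253 of 282. The same 10 bases stood in 1 of 2 promoters of Ifi203, where 40.4% of the lined-up bases matched Ifi208, and in that of Ifi207, where 29.7% did. They occurred in 16 of 27025 genes with a promoter entry. The nearest 10 bases of Ifi209 differed from the Ifi208 match by 1 base, G1T counted from the first capital. Isg15 held 3 overlapping matches.

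Promoter entries were found for 41 of the 49 members. Within 250 bases before and 50 after the start, 21 of the 41 (51.2%) held GAAANNGAAA on either strand, against 3.99% of all genes in the table. They included 5 of 6 Ifi200 genes, 4 of 4 Trim genes, 4 of 5 GTPases, 2 of 4 Schlafen genes, 5 of 15 effectors, 1 of 4 regulators and 0 of 3 antigen-processing genes. A match is a description of the letters and not evidence of binding.

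The listed interferon-response genes, chosen with earlier results of these data known, lay slightly above the other genes in the Pac1-KO library. Their summed level was 1128 CPM in WT and 1495 CPM in Pac1-KO, from 61584 and 87211 UMIs. The median of 12427 genes with at least 50 UMIs over both libraries was itself 0.19 higher in Pac1-KO on the log2 scale, so each log2 ratio is given relative to that median gene unless called as counted. On this scale 41 members reached 50 UMIs, 35 lay above the median gene and 6 below, and the median member was 0.31 higher. The 103 other pathway genes with 50 UMIs, given further below, had a median of 0.04.

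By a threshold of 1.5-fold relative to the median gene, 8 of the 41 members (19.5%) were higher in Pac1-KO, while 8.22% of all 12427 genes were. None of the 41 was lower by 1.5-fold, while 12.8% of all genes were. The higher members were Ifi208, Ifi213, Ifi209 and Ifi206 of the Ifi200 family and the effectors Ifi27l2a, Rtp4, Ifit2 and Bst2. Of these, Ifi208, Ifi213, Rtp4 and Ifit2 were below 50 UMIs in WT and reached the minimum through the Pac1-KO library. Outside the Ifi200 family 4 of 36 members were higher, and their median was 0.30.

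**Figure D1:**
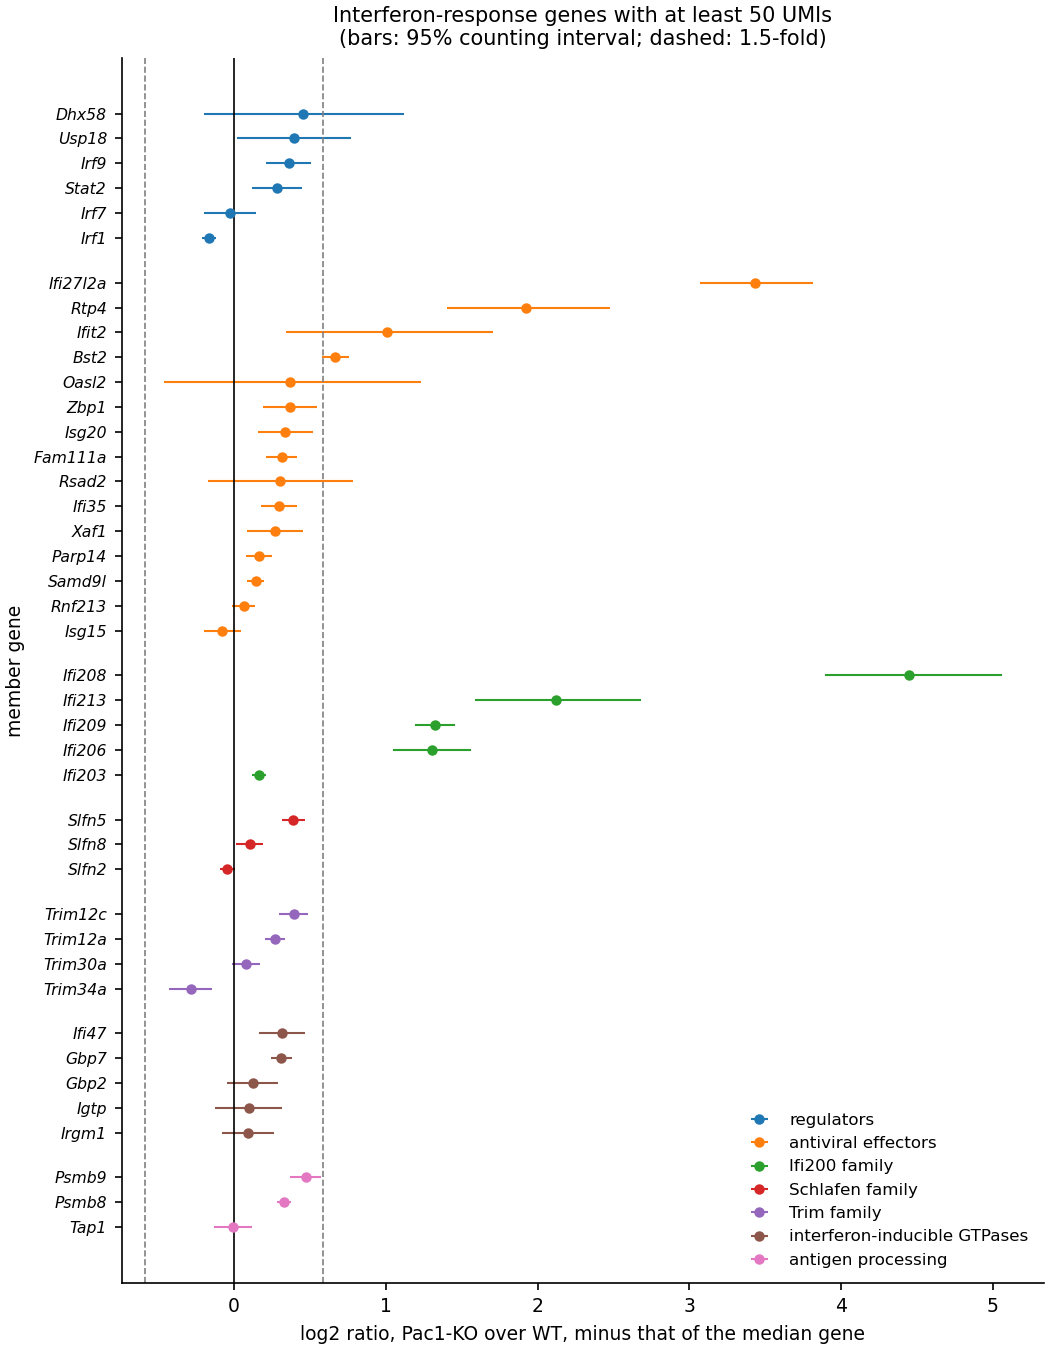
Log2 ratio of Pac1-KO over WT, minus that of the median gene, for the 41 members with at least 50 UMIs, grouped by role. Points are ratios of summed UMIs, bars are 95% counting intervals, and dashed lines mark 1.5-fold. The 8 members right of the upper dashed line reach 4.45 (Ifi208), and no point lies left of the lower one.

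The Ifi200 family held the largest difference. Many genes of this cluster, though not all, encode HIN-domain proteins that bind DNA and take part in sensing it and in gene regulation. Which of the members encode this domain was not examined here. Ifi208 (chr1:173673675-173698395, plus strand, GRCm38) had 27 UMIs in WT and 717 in Pac1-KO, or 0.495 and 12.3 CPM. Its log2 ratio was 4.45 (95% counting interval 3.89 to 5.06), or 21.8-fold. The gene was thus close to the limit of detection in WT and at the level of many other members in Pac1-KO.

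Ifi213 had 35 and 185 UMIs, or 0.641 and 3.17 CPM, and a log2 ratio of 2.12 (1.59 to 2.68). Ifi209 had 633 and 1926 UMIs, or 11.6 and 33.0 CPM, and a log2 ratio of 1.32 (1.19 to 1.45). Ifi206 had 167 and 501 UMIs, or 3.06 and 8.59 CPM, and a log2 ratio of 1.30 (1.05 to 1.56). These 3 genes were each more than 2 times higher in Pac1-KO, and their intervals lay wholly above 1.5-fold. Ifi203, the most abundant of the family, differed far less, with 6154 and 8389 UMIs (113 and 144 CPM) and a log2 ratio of 0.16 (0.12 to 0.21). Ifi204 had 4 and 6 UMIs and Ifi207 had 0 and 3, too few to compare.

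All 7 genes lie within chr1:173468485-173942672. Between them the related gene Mndal, which shares exons on the same strand with Ifi203, had 7513 and 11117 UMIs and a log2 ratio of 0.28. Aim2, the DNA sensor of the inflammasome, stands next to the cluster and had a log2 ratio of -0.15. Of the 6 flanking genes within 1 Mb that reached 50 UMIs, 0 passed 1.5-fold in either direction, with a median of 0.15. The shares over all genes were 8.22% higher and 12.8% lower. All 6 flanking genes lie on the side of Aim2, and no flanking gene on the other side reached 50 UMIs. The genes higher by 1.5-fold stood near each other in the order Ifi206, Ifi213, Ifi209 and Ifi208, with Aim2 on one side and, past the nearly undetected Ifi207 and Ifi204, Mndal and Ifi203 on the other. Between Ifi206 and Ifi213 lay Ifi214, which was under 50 UMIs (17 and 27) and had a log2 ratio of 0.38 (-0.54 to 1.35).

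**Figure D2:**
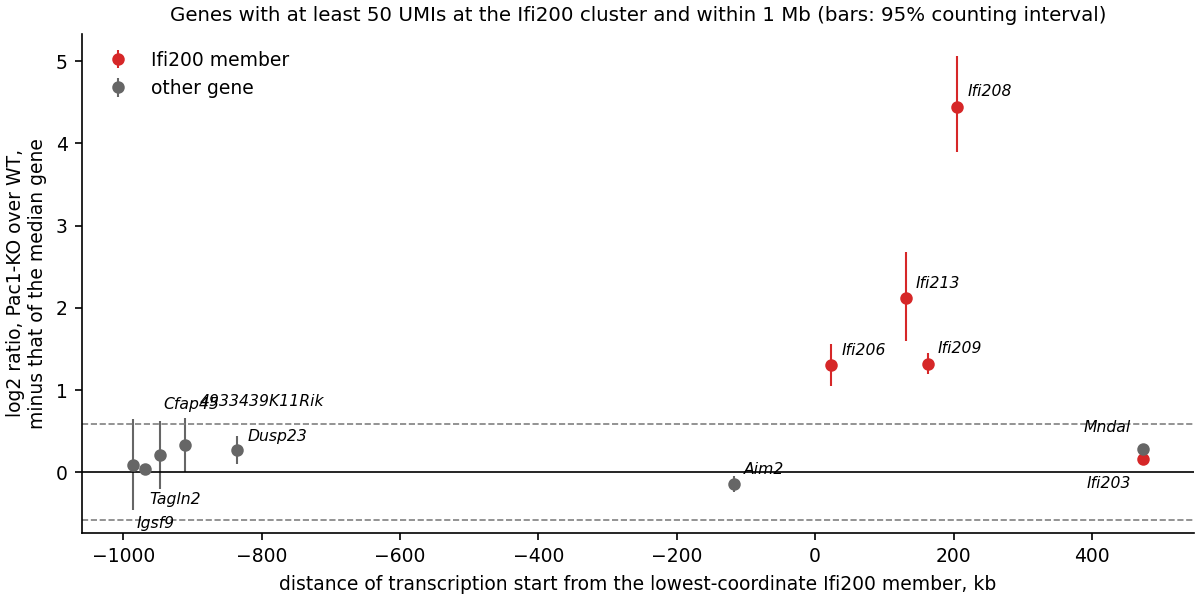
Log2 ratio of Pac1-KO over WT, minus that of the median gene, against the distance in kb of each gene's start from the lowest coordinate of the Ifi200 members. Red points are members, grey points other genes with at least 50 UMIs, bars 95% counting intervals and dashed lines 1.5-fold. Ifi206, Ifi213, Ifi209 and Ifi208 lie between 1.30 and 4.45, and Aim2, Mndal and Ifi203 between -0.15 and 0.28.

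Reads of such close relatives can be lost or assigned to each other. Of the 100-base words in the last 500 bases of the annotated Ifi209 transcripts, 57.6% also occurred in Ifi214. For Ifi206 the share was 10.9%, with Gm18752, for Ifi213 5.24%, with Ifi206 and Ifi208, and for Ifi208 0.623%, with Ifi213. The level of Ifi209 is the least certain of these, and the end of Ifi208 is nearly its own. Of the other members, Parp14, Trim12c, Gbp7 and Ifi47 share exons on the same strand with Gm49730, Gm27995, Gm43802 and Olfr56.

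Set against the general response, the Ifi200 family stood higher in Pac1-KO in the summed UMIs, without the most abundant genes and in the medians. In the summed UMIs the Schlafen family was slightly lower and the Trim family level with the general response, and without the most abundant genes this order turned. The summed Ifi200 UMIs were 7020 and 11727, and their log2 ratio exceeded that of the summed general response, 37152 and 52207 UMIs, by 0.25 (0.20 to 0.30). This sum is mostly Ifi203. Without Ifi203 in the family and Irf1 in the general response, the difference was 1.38 (1.27 to 1.49), and between the medians of the members it was 1.01.

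The Schlafen family, genes tied to quiescence and growth arrest of lymphocytes, had 10153 and 13125 UMIs and a difference from the general response of -0.12 (-0.16 to -0.08). Slfn2, its most abundant member, had 6142 and 7244 UMIs (113 and 124 CPM) and a log2 ratio of -0.05 (-0.09 to 0.00). Slfn5 was highest, with 2197 and 3506 UMIs (40.3 and 60.1 CPM) and 0.39 (0.31 to 0.47), and Slfn8 had 1814 and 2374 UMIs and 0.10 (0.02 to 0.19). None of the 3 passed 1.5-fold, while 8.22% of all genes were higher and 12.8% lower. Slfn1 had 0 and 1 UMIs. Without Slfn2 and Irf1 the difference of the family was -0.018 (-0.08 to 0.04), and between the medians of the members it was -0.21.

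The Trim genes, ubiquitin ligases of a cluster that includes restriction factors of retroviruses, had 7259 and 10152 UMIs and a difference of -0.01 (-0.05 to 0.04). Without Trim12a and Irf1 the difference was -0.145 (-0.21 to -0.08), and between the medians of the members it was -0.137. Trim12a, the most abundant, had 3260 and 4785 UMIs (59.7 and 82.0 CPM) and a log2 ratio of 0.27 (0.21 to 0.33). Trim12c was highest at 0.39 (0.30 to 0.49), with 1469 and 2349 UMIs. Trim34a was the lowest of all members with 50 UMIs, at -0.29 (-0.43 to -0.14) from 820 and 819 UMIs, and Trim30a stood at 0.08 (-0.01 to 0.17) from 1710 and 2199 UMIs. All 4 stayed within 1.5-fold, while 8.22% of all genes were higher and 12.8% lower. Among the words in the transcript ends of Trim34a, 12.5% were shared with Trim34b.

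**Figure D3:**
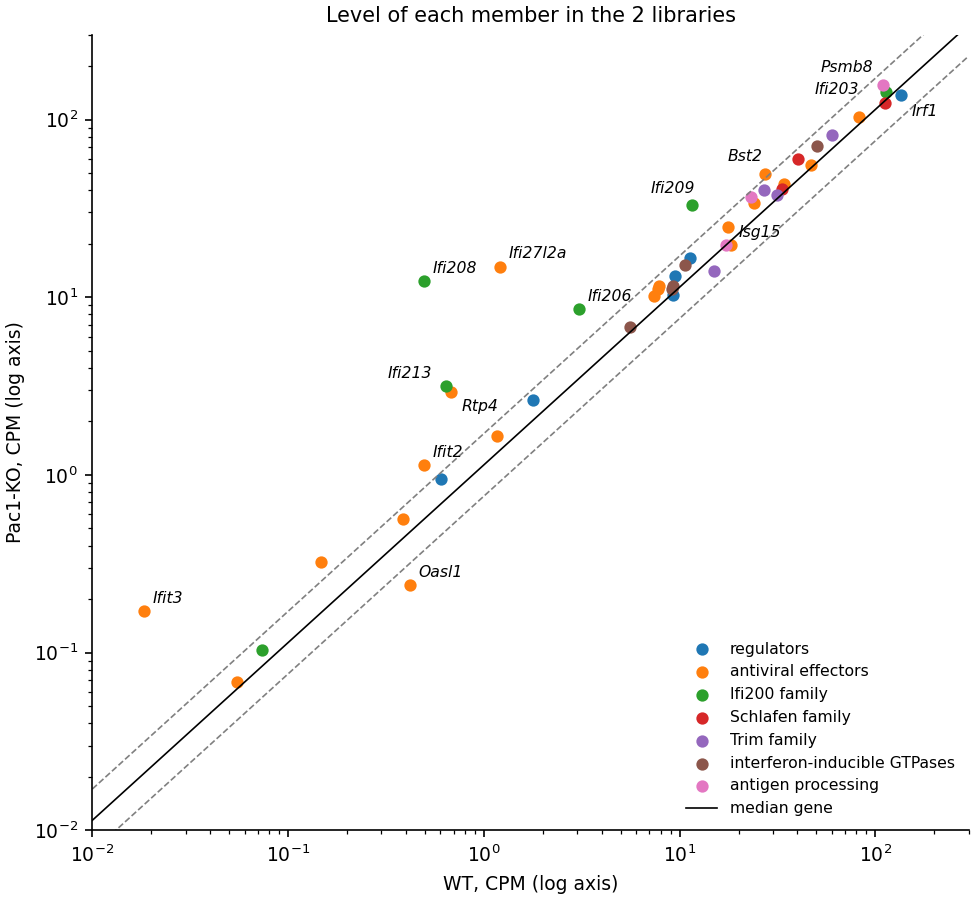
Level of each member with a UMI in both libraries, in CPM on log axes, WT on the horizontal and Pac1-KO on the vertical axis. The solid line is the median gene, dashed lines are 1.5-fold around it, and colours give the roles. Ifi208, Ifi27l2a, Ifi213 and Rtp4 stand farthest above the lines among the labelled genes with 50 UMIs, while Irf1, Psmb8 and Ifi203 lie within them. Oasl1 and Ifit3 had under 50 UMIs.

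Among the antiviral effectors, 4 of 15 with 50 UMIs were higher and 0 lower, against 8.22% and 12.8% of all genes, and the median was 0.32. Ifi27l2a, a small interferon-induced protein of the ISG12 group (chr12:103442167-103443680), had 66 and 868 UMIs, or 1.21 and 14.9 CPM, with a log2 ratio of 3.43 (3.07 to 3.82). Rtp4, an antiviral protein that also carries receptors to the cell surface, had 37 and 171 UMIs and 1.92 (1.40 to 2.48), and it shares exons on the same strand with Gm45338. Ifit2, which acts on translation of foreign RNA, had 27 and 66 UMIs and 1.01 (0.34 to 1.71), so its interval reaches below 1.5-fold. Bst2, the tetherin that holds budding virus on the cell, had 1493 and 2888 UMIs (27.4 and 49.5 CPM) and 0.67 (0.58 to 0.76). Its interval also reaches just below 1.5-fold. Below the threshold, the nearest members were Psmb9 at 0.47 and Dhx58 at 0.45.

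The most abundant effector, Samd9l, a restriction factor, had 4510 and 6057 UMIs (82.6 and 104 CPM) and a log2 ratio of 0.14 (0.09 to 0.20). Isg15, a ubiquitin-like modifier and one of the most used reporters of interferon signalling, had 994 and 1147 UMIs (18.2 and 19.7 CPM) and was the lowest effector at -0.08 (-0.20 to 0.05). The other 9 effectors with 50 UMIs lay between 0.06 (Rnf213) and 0.37 (Zbp1 and Oasl2), Rsad2 (viperin) among them at 0.30 (-0.17 to 0.78) from 64 and 96 UMIs. Of its Pac1-KO UMIs 20 came from 1 barcode, and without barcodes bearing markers of other cell types its log2 ratio was -0.07. Ifit1 had 8 and 19 UMIs, Ifit3 1 and 10, Ifi44 3 and 4, and Oasl1 23 and 14. Of the 15 effectors with 50 UMIs, 14 thus lay above the median gene, most of them by less than 1.5-fold.

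None of the 6 regulators passed 1.5-fold, while 8.22% of all genes were higher and 12.8% lower. Irf1, the most abundant member of all in WT and a transcription factor induced by both interferon types, had 7376 and 8010 UMIs (135 and 137 CPM) and the lowest ratio of the group, -0.16 (-0.21 to -0.12). Irf7, the amplifier of type I interferon transcription, had 503 and 601 UMIs and -0.03 (-0.20 to 0.15). Irf9 and Stat2, parts of the type I factor, stood at 0.36 (0.21 to 0.51) from 618 and 966 UMIs and at 0.28 (0.12 to 0.45) from 520 and 770 UMIs. Irf9 shares exons on the same strand with Rnf31. Usp18, which dampens receptor signalling, was at 0.39 (0.02 to 0.77) from 97 and 155 UMIs, and Dhx58, a relative of the RNA sensors, at 0.45 (-0.20 to 1.12) from 33 and 55 UMIs.

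The 5 GTPases, of families that take part in defence against intracellular microbes, lay between 0.09 (Irgm1, 501 and 649 UMIs) and 0.32 (Ifi47, 583 and 884 UMIs). The most abundant, Gbp7, had 2738 and 4136 UMIs (50.2 and 70.9 CPM) and a ratio of 0.31 (0.24 to 0.38). Of the antigen-processing genes, the immunoproteasome subunits Psmb8 and Psmb9 had log2 ratios of 0.33 (0.28 to 0.38) from 5970 and 9131 UMIs and of 0.47 (0.37 to 0.57) from 1270 and 2143 UMIs. Tap1, a chain of the peptide transporter, had 943 and 1144 UMIs and a ratio of -0.00 (-0.13 to 0.12). None of these 8 genes passed 1.5-fold, while 8.22% of all genes were higher and 12.8% lower.

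A score per barcode, the sum of the UMIs of the 48 members, was compared at matched depth by thinning each barcode to 1500 UMIs, which left 7634 WT and 6564 Pac1-KO barcodes and left out 760 and 523 with fewer. The mean score was 1.75 (SD over barcodes 1.55) in WT and 2.30 (SD 1.88) in Pac1-KO, 1.31 times higher. All scores are as counted. Relative to the median gene, the log2 ratio of the summed member UMIs over all passing barcodes was 0.22. The ratio of the means was 1.33 at 1000 UMIs and 1.31 at 3000. Unthinned means, 7.34 and 12.3, also hold the difference in depth.

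The scores overlapped broadly. At least 1 member UMI was left in 78.7% of WT barcodes (exact 95% interval 77.7 to 79.6) and 85.7% of Pac1-KO barcodes (84.8 to 86.5), against 94.6% and 97.5% before thinning. The median was 1 in WT and 2 in Pac1-KO, and the upper quartile was 3 in both. A score of 8 or more was found in 31 WT barcodes, 0.406% (0.276 to 0.576), and in 86 Pac1-KO barcodes, 1.31% (1.05 to 1.62). No cell type that should lack all of these genes exists to set a background for such shares. Barcodes that failed the filter held members at 1252 CPM in WT and 1667 CPM in Pac1-KO, against 1128 and 1495 CPM in passing barcodes. UMIs from free RNA were thus not told apart from expression in these shares.

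**Figure D4:**
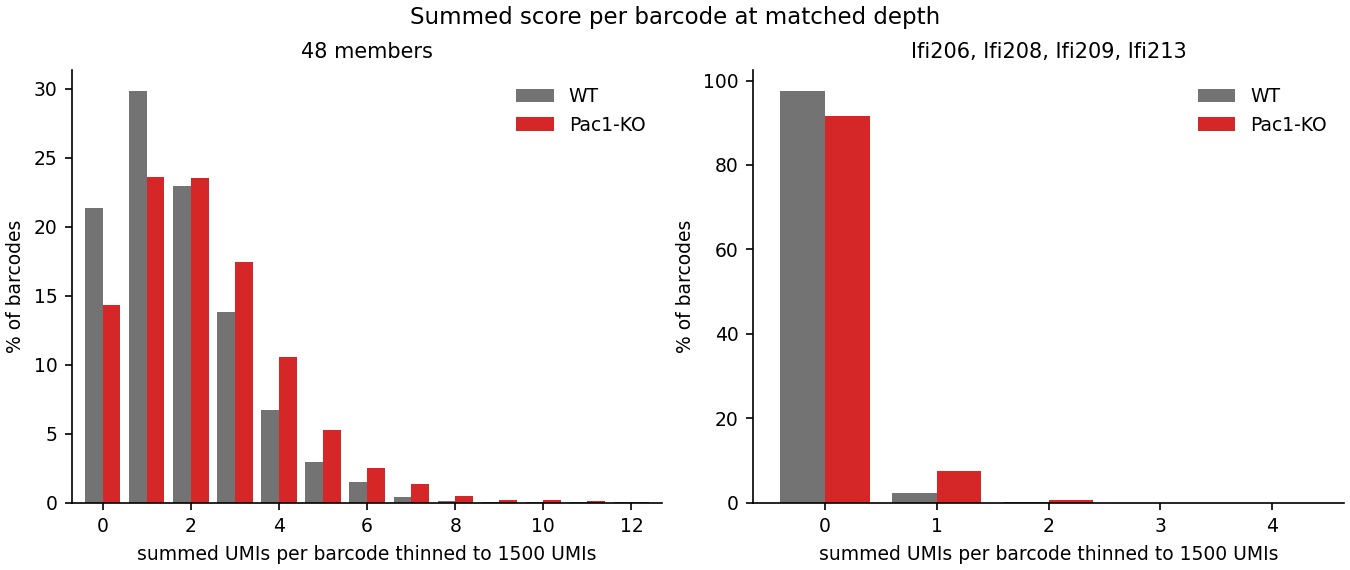
Share of barcodes in percent by the number of member UMIs left after thinning to 1500 UMIs, for the 48 members and for Ifi206, Ifi208, Ifi209 and Ifi213, in WT (grey) and Pac1-KO (red); scores above 12 are not drawn on the left. Score 0 holds 21.3% of WT and 14.3% of Pac1-KO barcodes on the left and 97.6% and 91.7% on the right.

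By role, the mean score of the antiviral effectors was 0.433 in WT and 0.594 in Pac1-KO, and that of the regulators 0.245 and 0.262. The Ifi200 mean was 0.206 and 0.325, the Schlafen mean 0.284 and 0.342 and the Trim mean 0.222 and 0.274. The 4 Ifi200 genes with the largest ratios, a set chosen by these values, left a UMI in 2.45% of WT and 8.32% of Pac1-KO barcodes, or 8.58% and 29.4% unthinned. The regulators, most of whose UMIs were those of Irf1, had the smallest difference of these groups. Relative to the median gene, the log2 ratio of their summed UMIs over all passing barcodes was -0.08.

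Ifi208 was spread over many barcodes. In Pac1-KO its 717 UMIs came from 604 barcodes, none of which held 5, and the 1% of barcodes with most of them held 22.2% of the UMIs. After thinning it was found in 133 barcodes, 2.03%, and in 4 WT barcodes, 0.05%. The variance of its thinned counts was 1.05 times their mean, where counts scattered at random give 1. With a UMI in only 2.03% of barcodes, a moderately uneven spread would also give a value near 1. This value thus does not show that the spread was even.

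The Ifi208 difference was large in the following classes of barcodes by cytokine, S1pr1, depth and filter. Among barcodes with a UMI of Il5 or Il13, the type 2 cytokines, its level was 0.502 CPM in WT and 10.7 CPM in Pac1-KO, and among those without it was 0.471 and 15.2 CPM. Among barcodes with a UMI of S1pr1, a lymphocyte egress receptor, 3 UMIs in WT and 41 in Pac1-KO gave a log2 ratio of 4.10 (2.45 to 6.43), and among the rest it was 4.49 (3.91 to 5.14). From the lowest to the highest tertile of UMIs per barcode the ratio was 6.36 (3.85 to 11.68, from 1 UMI in WT), 3.96 (3 to 5.11) and 4.43 (3.73 to 5.22). Barcodes that failed the filter, with medians of 599 and 596 UMIs, had 1 and 39 UMIs of Ifi208, or 0.624 and 20.1 CPM, so that its Pac1-KO level there was above the 12.3 CPM of passing barcodes. In the 22 Pac1-KO barcodes with erythroid markers it stood at 19.4 CPM, from 7 UMIs. The 8 WT barcodes with erythroid markers held 0, too few to compare. UMIs from free RNA were thus not told apart from expression in single barcodes. Leaving out barcodes with markers of other cell types gave 4.48, and keeping only those with Gata3 and Il1rl1 gave 4.50.

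Ifi27l2a showed the opposite distribution. In Pac1-KO 751 of its 868 UMIs (86.5%) came from 38 barcodes with 5 or more each, and the 1% of barcodes with most of them held 96.3%. The variance of its thinned counts was 4.72 times the mean. In WT 3 barcodes had 5 or more and held 29 of the 66 UMIs.

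The 38 barcodes were deeper than the others, with a median of 9333 UMIs against 5567. Gata3 was found in 35 of them (92.1%, against 90.7% of the other Pac1-KO barcodes) and Il1rl1 in 31 (81.6% against 93.0%). The B cell gene Cd79a was found in 5 (13.2% against 0.454%), Il17a in 4 (against 31 of the other 7049, 0.440%) and the T cell gene Cd3e in 1 (2.63% against 2.62%). S1pr1 was found in 21 (55.3%), against 2.44% of the other Pac1-KO barcodes, and the interferon-induced membrane gene Ms4a4b in 29 (76.3%), against 0.922%. Other members were also higher in them, Isg15 at 241 CPM against 17.9, Bst2 at 245 against 47.9, Ifi213 at 68.8 against 2.64 and Rtp4 at 36.5 against 2.66. Ifi208 was at 15.0 CPM in these barcodes and 12.3 CPM in the others, and in 6 of the 38. These barcodes were picked by Ifi27l2a and the values describe them without a test.

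In the class with an S1pr1 UMI, 321 WT and 193 Pac1-KO barcodes, Ifi27l2a stood at 6.89 and 161 CPM, against 0.735 and 7.10 CPM in the rest. Barcodes with at least 3 different B cell markers, 10 in WT and 25 in Pac1-KO, held 2 and 123 of its UMIs, 73 and 165 barcodes with Il17a-type markers held 1 and 201 (0.718 and 48.3 CPM), and 8 and 12 barcodes with stromal markers held 17 and 12. Without any barcodes bearing markers of other types its log2 ratio was 3.97, and without those with Il17a-type markers 3.15. It was 3.97 (3.53 to 4.45) among barcodes with an Il5 or Il13 UMI and 2.06 (1.43 to 2.75) among those without. Barcodes that failed the filter held 10 and 8 of its UMIs, or 6.24 and 4.11 CPM, with a log2 ratio of -0.79 (-2.33 to 0.70), so that the difference was not seen in them. For Ifi213 and Rtp4 the variance of the thinned Pac1-KO counts was 1.48 and 1.24 times the mean, from UMIs in 25 and 22 barcodes. The Ifi213 ratio varied among the classes, at 0.84 (-0.23 to 2.01) in the lowest, 3.21 (1.76 to 5.15) in the middle and 2.24 (1.55 to 3.01) in the highest tertile of UMIs per barcode. Among barcodes with an S1pr1 UMI it had 1 and 40 UMIs, and among the rest a log2 ratio of 1.77 (1.22 to 2.35).

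**Figure D5:**
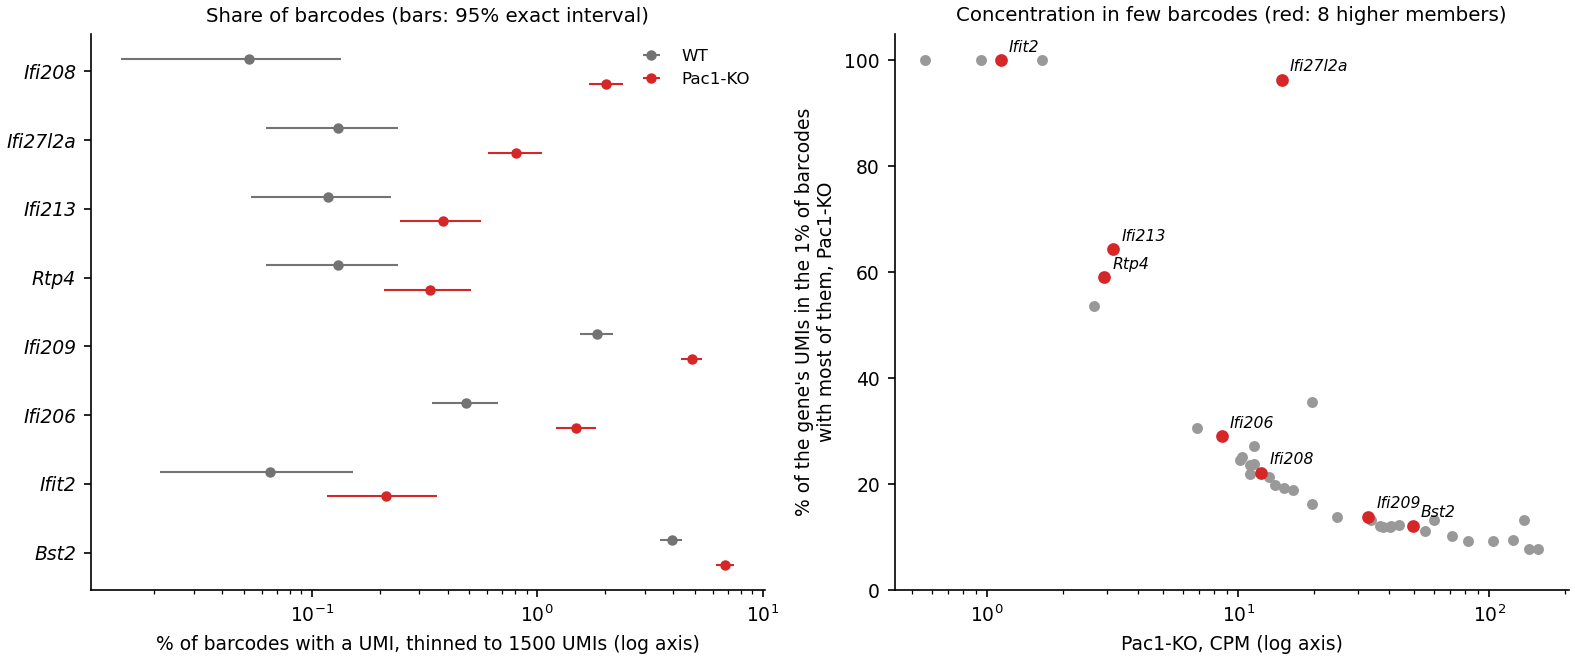
Left, percent of barcodes with a UMI after thinning to 1500 UMIs (log axis, 95% exact intervals) for the 8 higher members in WT (grey) and Pac1-KO (red). Right, percent of a gene's Pac1-KO UMIs in the 1% of barcodes with most of them, against its Pac1-KO level (log axis), for the 41 members. Few barcodes can hold all UMIs of a rare gene, so the share falls with the level, and Ifi27l2a at 96.3% stands apart from Ifi208 at 22.2% at a similar level.

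Of 147 other genes measured on lists of ligands, receptors, sensors and further targets, 103 reached 50 UMIs, 12 of these (11.7%) were higher and 4 (3.88%) lower, against 8.22% and 12.8% of all genes, and their median was 0.04. The share higher was thus near that of all genes, and 3 of the 12, Ifng, Ms4a4b and Ifitm1, were below 50 UMIs in WT and reached the minimum through the Pac1-KO library. Of 18 interferon ligands, 1 reached 50 UMIs, Ifng, with 4 UMIs in 4 WT barcodes and 48 in 17 Pac1-KO barcodes and a log2 ratio of 3.30 (1.85 to 5.23). Ifnb1 had 0 UMIs in both libraries, which does not exclude a low level. In WT the exact counting interval of a gene with 0 UMIs reached up to 0.0676 CPM. All 18 ligands together had 12 and 57 UMIs, so that Ifng made up most of the Pac1-KO sum and transcripts of the others were nearly absent.

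Among 19 genes for receptors and signalling, 0 were higher and 0 lower by 1.5-fold, against 8.22% and 12.8% of all genes. The receptor chains Ifnar1 and Ifngr1 stood at -0.48 (5255 and 4584 UMIs) and -0.54 (12940 and 10848 UMIs), and their partners Ifnar2 and Ifngr2 at 0.01 and -0.15. The highest were the transcription factor Irf3 at 0.50 and the feedback inhibitors Socs1 at 0.47 and Socs3 at 0.45, and the lowest besides Ifngr1 were the phosphatase Ptpn1 at -0.52 and the kinase Jak2 at -0.50. Among 11 nucleic acid sensors and their partners none passed 1.5-fold, against the same shares of all genes. They ran from Ticam1 (0.30), Mavs (0.28) and Eif2ak2 (0.14) down to Ifih1 (-0.10), Aim2 (-0.15) and Tbk1 (-0.31).

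Of 44 further interferon-induced genes, 7 were higher and 1 lower, against 8.22% and 12.8% of all genes, with a median of 0.10. The highest were Ms4a4b at 2.97 (32 and 306 UMIs), the large GTPase Gvin1 at 1.32 (477 and 1452 UMIs) and Ifitm1, which blocks virus entry, at 1.09 (20 and 52 UMIs). Ifitm3 (0.86), Ifitm2 (0.85), Phf11b (0.66) and Ifi27 (0.63), which lies beside Ifi27l2a on chromosome 12, also passed. The Pac1-KO UMIs of Ifitm1 came from 14 barcodes, and without barcodes bearing markers of other cell types Ifitm1 (0.44) and Ifi27 (0.58) no longer passed. The lowest were Lgals9 at -0.63, the MHC class I activator Nlrc5 at -0.57 and Nmi at -0.48.

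Of 10 other interferon-inducible GTPases, 4 were higher and 1 lower, against the same 8.22% and 12.8%, with a median of 0.44. Gvin1 was counted here too, followed by Gbp5 at 0.69 (243 and 478 UMIs), Gbp6 at 0.67 (263 and 509 UMIs) and Irgm2 at 0.64, while Gbp3 (-0.71), Tgtp2 (-0.46) and Tgtp1 (-0.37) were the lowest. Irgm2 shares exons on the same strand with the member Igtp, and without barcodes bearing markers of other cell types it stood at 0.47. On the list of other Schlafen genes, Slfn9 stood at 0.44 and Slfn3 at 0.18. On that of other Trim genes, Trim68 stood at 0.67, Trim21 at 0.46, Trim5 at 0.08 and Trim30d at -0.26. Among all of these only Trim68 passed, though not without the barcodes just named (0.55). Of the flanking genes within 1 Mb of the Trim family that reached the minimum, 3 of 5 were higher and 0 lower, against 8.22% and 12.8% of all genes. They included the hemoglobin genes Hbb-bt and Hbb-bs. Around the Schlafen family 3 of 25 flanking genes were higher and 6 lower, against the same 8.22% and 12.8%. Of 17 genes of MHC class I and its processing, 0 were higher and 2 lower, against 8.22% and 12.8% of all genes. The lower 2 were H2-Q6 (-0.62) and Psme1 (-0.59), followed by H2-Q7 (-0.55), while Psmb10 (0.52), H2-T23 (0.31) and Psme2 (0.14) were highest. The H2-Q genes are close copies whose UMIs could be split between them.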

How the data were processed

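Per the labels, lung ILC2s of each genotype were pooled and run on the 10x Genomics 3′ v3.1 chemistry. The authors deposited raw UMI counts per gene and barcode, made with Cell Ranger on mm10. The version is 6.1.1 in the submitters' processing notes and 4.0.0 in the file header. The deposited counts were not normalized.

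UMIs were summed per library over barcodes showing 500 or more genes and no more than 10% mitochondrial UMIs. Doublets were not removed in the main values. CPM has exact Poisson, ratios exact conditional binomial and shares exact Clopper-Pearson intervals, all at 95%, covering counting error only. Family differences have intervals from the 4 summed counts. Genes needed 50 UMIs over both libraries, except the cell type markers, which had no minimum. Ratio intervals were tested on simulated data. Named genes were members past 1.5-fold, the most abundant, highest and lowest of each family, and the 3 highest and 3 lowest of each other list. Members and lists were chosen with earlier results of these data known. A barcode bore markers of another type with at least 3 of that list. Coordinates are GENCODE M21 (GRCm38), matched for 99.91% of genes, and promoters are RefSeq. Python 3.11.15, numpy 2.4.6, scipy 1.17.1, pandas 2.3.3 and matplotlib 3.10.9 were used. The alternatives covered barcodes, minimum UMIs, scaling, fold and thinning. 1 gene among those to be named is not reported here.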

Additional observations from a re-analysis of the deposited data

How the results depend on the processing

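With 1 library per genotype, differences between the libraries cannot be told apart from differences between the genotypes, and 3′ counts of close relatives can be misassigned. No paired analysis was possible because each genotype had 1 library. Of the alternative values, 70 kept the sign and lay within the interval of the reported value or, for counts, within 1.5 times of it, and 15 did not. The number of members higher by 1.5-fold was 8 in each of 7 alternative sets of barcodes, 9 with at least 20 UMIs (9.94% of all genes), 10 with at least 1 UMI in each library (13.9%), 10 with CPM as counted (16.9%) and 10 with a mean over barcodes (8.97%). At the lower fold threshold tried it was 18, against 21.7% of all genes, and at 2-fold 7, against 2.07%. Members lower by 1.5-fold numbered 1 with at least 20 UMIs and 1 with at least 1 UMI in each library, in both cases Oasl1. The median member was 0.50 as counted. The score difference of 0.545 was 0.380 at 1000 UMIs, 1.08 at 3000, 4.97 without thinning and 0.475 as the number of members detected, as the scale of the score sets. The Ifi200 difference of 0.25 became 1.38 without the most abundant genes and 1.01 between medians, that of the Schlafen family -0.018 and -0.21, and that of the Trim family -0.145 and -0.137, and 0.01 in barcodes with Gata3 and Il1rl1. The removal of barcodes with Il17a-type markers, and the alternatives for the other pathway genes, of which 8 to 12 were higher, were chosen after seeing the data. Members with under 50 UMIs are limited by depth.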
